A study of Mus musculus with 18 samples.

Results

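Mural cells, the pericytes of capillaries and the smooth muscle cells of arterioles and arteries, are described here through 10 genes chosen by name as their markers: Rgs5, Abcc9, Cspg4, Pdgfrb, Notch3, Myh11, Cnn1, Myocd, Des1 and Vtn. They are 10 of the 30583 genes in the count table, and all 10 passed the filter on low counts. Current symbols matched 9 of them. Des1 matched by synonym only, to Degs1, a sphingolipid desaturase that is no mural cell marker, so the values under that name are those of Degs1. Desmin (Des), the intermediate filament protein of muscle, is given among the other smooth muscle genes.

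RNA was sequenced from left ventricular myocardium, infarcted in the ligated groups, of 18 male C57BL/6JR mice aged 12 weeks, 3 in each of 6 groups and 1 library per mouse. No genotype beyond the strain is given for any group. In 5 groups the left anterior descending (LAD) branch of the coronary artery was tied off under pentobarbital anaesthesia, and tissue was taken 10 min or 1, 6, 24 or 72 h later. The sham group was operated on in the same way, with the suture placed but not tied, and serves as the control for every time point, so the 5 comparisons with sham share its 3 libraries. No sham group was matched to each time, so ligation and time since the operation cannot be told apart.

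Libraries held 18.2 to 25.1 M counts. The labels name cardiomyocytes as the cell type and describe no separation of cells. In sham libraries 8 cardiomyocyte markers summed to 67872 to 73017 TMM-scaled CPM (counts per M counts, corrected for composition with the TMM method), and markers of other cells were present as well: 8 endothelial markers summed to 1374 to 1522, 8 fibroblast markers to 2021 to 2261 and 8 macrophage markers to 255 to 290. The mural genes are therefore measured in whole tissue. There, fewer mural cells, less RNA per mural cell and changes in other cells that express the same genes cannot be told apart. The composition of the tissue RNA differed strongly between groups. At 72 h the cardiomyocyte markers summed to 17239 to 23101 and the macrophage markers to 3216 to 4237.

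Pericytes share a basement membrane with the capillary endothelium and are recruited to it by PDGF-B from endothelial cells, which acts on the receptor encoded by Pdgfrb. Smooth muscle cells of larger vessels depend on NOTCH3 for their identity and on myocardin, a coactivator of serum response factor (SRF), for their contractile genes. In injured heart muscle mural cells can lose contractile and quiescent markers and take up matrix-producing or proliferative programmes, and several of their genes, among them Abcc9, Myocd and Des, are also expressed by cardiomyocytes, while Acta2 and Cnn1 are also expressed by myofibroblasts.

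The promoters of the genes that changed most are shown first, because Abcc9 and Vtn, the member genes with the lowest levels relative to sham at 72 h among those with a window, share an 8-base string. RefSeq windows (GRCm38.p6, 250 bases before to 50 after the annotated start, gene strand) matched 7 of the 10 members, and Pdgfrb, Myh11 and Myocd had none. Capitals mark TGGGAA, the core of the site bound by RBPJ, the DNA-binding partner of Notch receptors, and CATTCC, the core bound by TEAD factors, on either strand. The first 4 bases of the reversed CATTCC overlap the last 4 of TGGGAA where the 2 join as TGGGAATG. The window of Kcnj8, the neighbour of Abcc9, is shown for comparison, as are those of Rgs5 and Cnn1, in which neither string was found.
Abcc9 (chr6:142702225-142702524, minus strand): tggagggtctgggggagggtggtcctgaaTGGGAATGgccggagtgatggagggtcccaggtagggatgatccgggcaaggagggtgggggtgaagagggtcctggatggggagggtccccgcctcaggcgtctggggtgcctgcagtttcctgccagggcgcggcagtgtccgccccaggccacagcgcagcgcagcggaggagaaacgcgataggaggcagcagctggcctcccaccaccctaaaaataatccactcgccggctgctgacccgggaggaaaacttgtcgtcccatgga
Vtn (chr11:78498870-78499169, plus strand): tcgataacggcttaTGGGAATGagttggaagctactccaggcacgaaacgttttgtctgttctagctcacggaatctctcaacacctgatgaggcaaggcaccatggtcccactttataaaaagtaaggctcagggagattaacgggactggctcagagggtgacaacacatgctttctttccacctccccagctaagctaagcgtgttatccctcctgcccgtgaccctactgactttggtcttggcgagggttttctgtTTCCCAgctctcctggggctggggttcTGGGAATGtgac
Kcnj8 (chr6:142571565-142571864, minus strand): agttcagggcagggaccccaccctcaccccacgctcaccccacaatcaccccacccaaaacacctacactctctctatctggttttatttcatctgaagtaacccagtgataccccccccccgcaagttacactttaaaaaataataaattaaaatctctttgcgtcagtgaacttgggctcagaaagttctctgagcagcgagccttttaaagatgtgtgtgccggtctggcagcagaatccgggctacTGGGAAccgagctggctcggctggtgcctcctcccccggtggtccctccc
Rgs5 (chr1:169655251-169655550, plus strand): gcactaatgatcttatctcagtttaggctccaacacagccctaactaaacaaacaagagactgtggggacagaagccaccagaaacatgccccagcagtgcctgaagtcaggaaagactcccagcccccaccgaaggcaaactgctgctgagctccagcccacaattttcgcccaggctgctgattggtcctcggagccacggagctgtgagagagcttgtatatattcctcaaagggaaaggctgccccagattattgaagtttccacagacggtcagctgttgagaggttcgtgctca
Cnn1 (chr9:22099003-22099302, plus strand): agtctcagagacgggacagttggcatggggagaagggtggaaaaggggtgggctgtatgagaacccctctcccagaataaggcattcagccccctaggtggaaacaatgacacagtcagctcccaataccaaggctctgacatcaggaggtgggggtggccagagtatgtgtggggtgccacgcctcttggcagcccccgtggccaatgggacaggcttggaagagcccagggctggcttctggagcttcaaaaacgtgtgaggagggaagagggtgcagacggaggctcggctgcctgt

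The joined string TGGGAATG lay at -221 in the Abcc9 window and at -236 and 39 in the Vtn window, counted with the start as 1 and the base before it as -1. It was present in 2 of the 7 member windows and in 1.46% of 32851 windows of that length. TGGGAA alone was present in 3 of 7 (Abcc9, Degs1 and Vtn), against 25.6% of all windows, and CATTCC in 2 of 7, against 14.7%. The CArG box, the site bound by SRF, was present in 0 of 7 member windows and in 1.63% of all windows. Among 14 windows of other smooth muscle genes it was present in those of Cnn2 and Myl9. TGGGAATG was present in 0 of these 14 windows. It was also found in 1 of 10 windows of other pericyte genes (Art3) and 1 of 7 of Notch ligands and targets (Hey2). A match describes the letters of the window and is no evidence that a factor binds there, and the list of strings was chosen with the expression changes known.

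In sham tissue Rgs5 was the most abundant member per length. Its level was 129 ± 5.43 FPKM (fragments per kilobase per M counts; SD, n = 3), above Abcc9 at 38.7 ± 1.05. Pdgfrb at 16.3 ± 0.761, Vtn at 16.2 ± 0.301, Degs1 at 15.9 ± 1.52 and Myh11 at 14.2 ± 1.37 followed. The libraries of these last 4 genes overlapped between each gene and the next in the order. Notch3 came next at 10.9 ± 0.974 FPKM, then Myocd at 3.86 ± 0.356, Cspg4 at 2.85 ± 0.266 and Cnn1 at 1.36 ± 0.186, with no overlap between neighbours. At 72 h the order on the same scale was Rgs5 at 93.1 ± 0.851, Degs1 at 30.9, Pdgfrb at 28.1, Notch3 at 12.9, Abcc9 at 12.9, Vtn at 8.11, Myh11 at 6.76, Cnn1 at 6.14, Cspg4 at 2.96 and Myocd at 2.83. Rgs5 remained first, and Abcc9 moved from second place into the range of Notch3, whose libraries it overlapped.

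Members were called from 6 h on, the times at which the share of all genes called was also large. At 10 min and at 1 h after ligation edgeR's quasi-likelihood test called 0 of 10 members, where 0.0736% (0.0307% higher, 0.0429% lower) and 0.294% (0.288% higher, 0.00613% lower) of all 16311 genes tested were called, and 0 members had an unadjusted p under 0.05 at either time. DESeq2 also called 0 at both. At 6 h 1 member was called, lower, against 28.4% of all genes (16.3% higher, 12.2% lower). At 24 h 5 were called, 1 higher and 4 lower, against 43.8% of all genes (23.7% higher, 20.2% lower). At 72 h 9 were called, 2 higher and 7 lower, against 66.4% of all genes (34.2% higher and 32.2% lower). The median log2 fold change of the members was -0.21 at 6 h, -0.12 at 24 h and -0.78 at 72 h, against -0.01, 0.01 and 0.03 over all genes tested. Libraries that lay all on one side of the sham libraries were found for 3 members at 10 min (20.0% of all genes), 1 at 1 h (16.9%), 5 at 6 h (44.3%), 6 at 24 h (53.7%) and 8 at 72 h (75.8%). At each time this share of the members was near that of all genes.

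**Figure D1:**
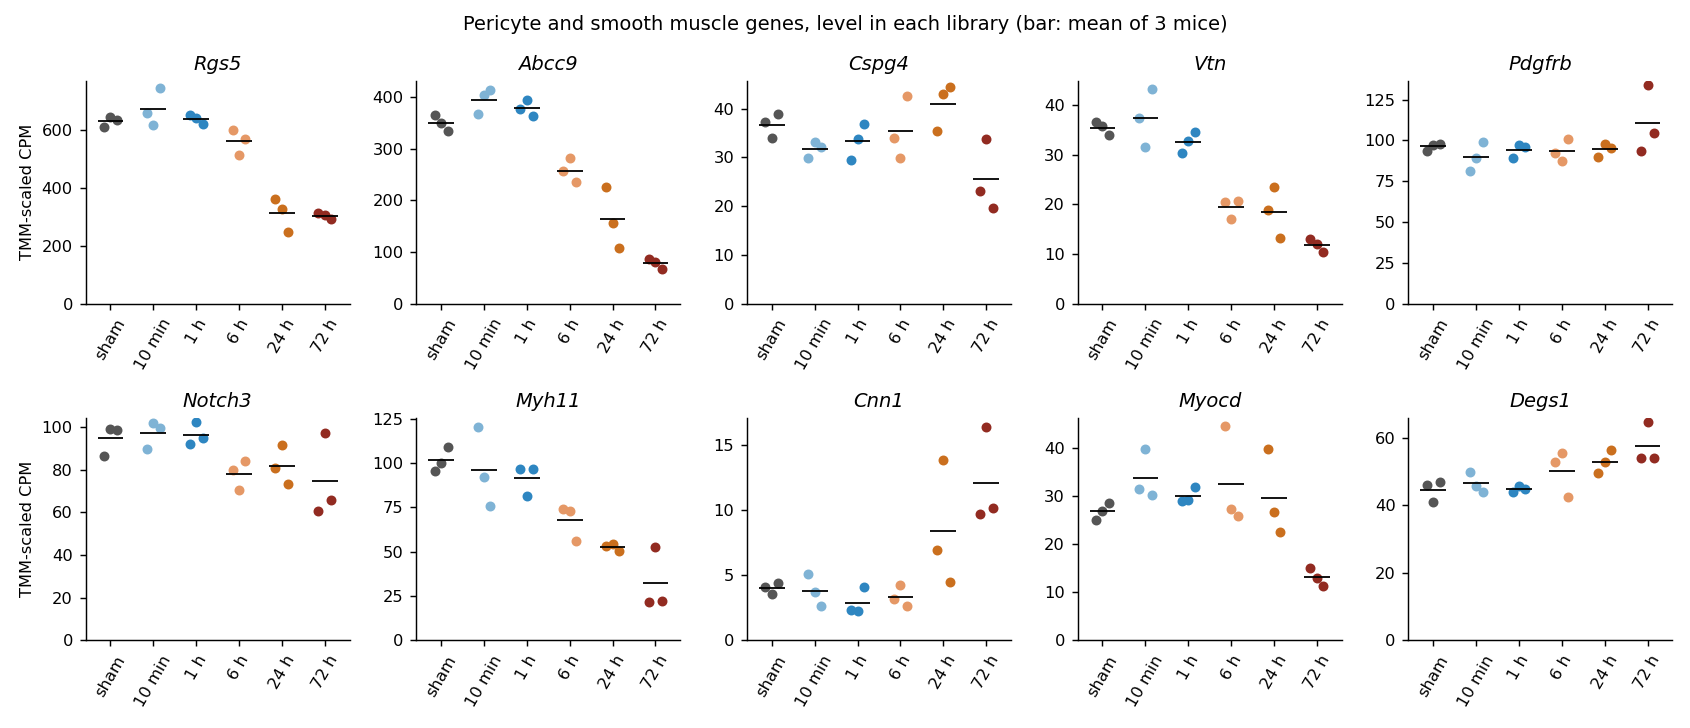
TMM-scaled CPM of the 10 genes (vertical axes, linear, from 0) in every library of the 6 groups (horizontal axis), 1 point per mouse, with a bar at the mean of 3 mice. Rgs5, Abcc9 and Vtn are lower in all 24 h and 72 h libraries than in all sham libraries, Cnn1 is higher, and Pdgfrb stays between 81.2 and 134 CPM throughout.

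These directions rest on the scaling. TMM holds the median gene near 0, whereas scaling by library size alone put the median gene at -0.12 (6 h), 0.20 (24 h) and 0.61 (72 h). With it, 8 members were called at 72 h, 3 higher and 5 lower, in place of 2 higher and 7 lower. The direction of Cspg4 and Notch3 at 72 h turned. The log2 changes at 72 h became -0.47 for Rgs5, -1.58 for Abcc9, -0.99 for Vtn, -1.07 for Myh11, -0.45 for Myocd, 2.17 for Cnn1 and 0.95 for Degs1, so each of the falls was smaller and both rises were larger. All changes below are relative to the median gene unless stated otherwise.

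**Figure D2:**
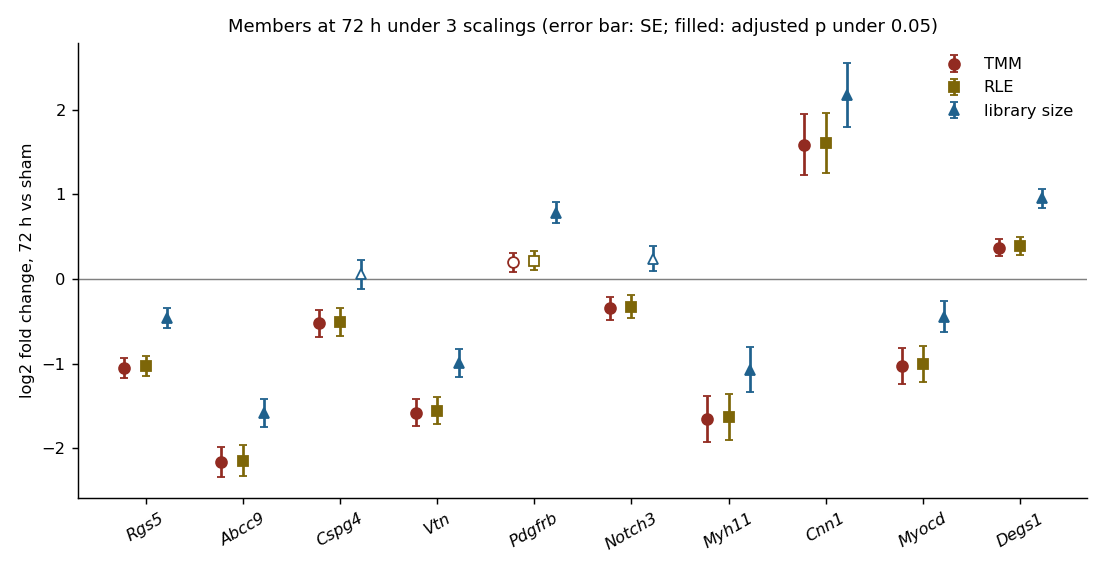
Log2 fold change at 72 h against sham (vertical axis, error bars SE) of each member (horizontal axis) under TMM, RLE and library size scaling, filled where the adjusted p was under 0.05. Rgs5, Abcc9, Vtn, Myh11 and Myocd lie below 0 and Cnn1 and Degs1 above 0 under all 3 scalings, while Cspg4 and Notch3 cross 0.

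Rgs5, a GTPase-activating regulator of G protein signalling and a classical pericyte marker, was 2.02-fold lower than in sham at 24 h and 2.07-fold lower at 72 h. Sham libraries held 612, 645 and 636 CPM, those at 6 h 599.6, 514 and 571, those at 24 h 361, 328 and 248, and those at 72 h 315, 306 and 293. Every 24 h and 72 h library lay below every sham library. The log2 fold change was -1.01 (SE 0.12) at 24 h (edgeR adjusted p = 6.13e-06) and -1.05 (SE 0.12) at 72 h (edgeR adjusted p = 3.48e-07). At 10 min (658, 617 and 744 CPM) and 1 h (650.5, 641 and 622 CPM) the libraries overlapped sham. With library size scaling Rgs5 at 72 h was -0.47 (edgeR adjusted p = 0.0014) and was higher than at 24 h (0.36, edgeR adjusted p = 0.0142). The gene (ENSMUSG00000026678) lies on chromosome 1 at 169655501 to 169695813 (GRCm38, plus strand).

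Abcc9, the regulatory sulfonylurea receptor subunit of ATP-sensitive potassium (KATP) channels in pericytes, smooth muscle and cardiomyocytes, showed the largest change of the members. Sham libraries held 364, 349.6 and 334 CPM and 6 h libraries 256, 281 and 235. They held 226, 157 and 108 CPM at 24 h and 85.9, 80.3 and 67.4 CPM at 72 h. From 6 h on no library reached the sham range, and each later group lay below the earlier one without overlap. The log2 fold change was -0.44 (SE 0.17) at 6 h, which missed the threshold (edgeR adjusted p = 0.0662), -1.10 (SE 0.18) at 24 h (edgeR adjusted p = 0.00012) and -2.17 (SE 0.18) at 72 h (edgeR adjusted p = 1.13e-08), which is 4.49-fold lower. The 6 h value was called when replicate 1 or 3 of the 24 h group was left out (edgeR adjusted p = 0.00964 and 0.00757). All 8 cardiomyocyte markers also fell at 72 h, with a median log2 fold change of -2.07, and their part in the Abcc9 value was not tested. The gene (ENSMUSG00000030249) lies on chromosome 6 at 142587862 to 142702315 on the minus strand, and an antisense gene, 5330439B14Rik, shares 1.89% of its exon bases.

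The pore subunit that pairs with it in vessels, Kcnj8, lies 16247 bp from Abcc9 with 0 genes of the table between them. Kcnj8 fell from 84.0 ± 3.47 CPM in sham to 51.4 ± 4.86 at 24 h, a log2 change of -0.71 (edgeR adjusted p = 0.000185), and to 26.8 ± 4.41 at 72 h, a log2 change of -1.65 (edgeR adjusted p = 2.51e-09). Kcnj11 and Abcc8, the other neighbouring pair of KATP subunits, had log2 fold changes of -2.09 and -1.82 at 72 h, so 3 of 3 other channel genes fell, also under library size scaling. Within a library the ratio of Kcnj8 to Abcc9 counts was 0.241 ± 0.0126 in sham. It was lower at 10 min (0.195 ± 0.0144) and 1 h (0.205 ± 0.0117) and higher at 72 h (0.344 ± 0.0253), each without overlap with sham, and overlapped sham at 6 h and 24 h. With 3 mice against 3 the smallest two-sided p that an exact permutation test can give is 0.1, which was its value at those 3 times. The ratio of Kcnj11 to Abcc9 counts was 0.565 ± 0.00822 in sham and 0.598 ± 0.0982 at 72 h, where it overlapped sham. It was lower than in sham at 10 min (0.467 ± 0.0334), 1 h (0.493 ± 0.0282) and 6 h (0.414 ± 0.101). At 24 h it was higher (0.680 ± 0.0671). None of these earlier times overlapped sham (exact permutation p = 0.1 each).

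Vtn, which encodes the adhesive plasma and matrix protein vitronectin and is a marker of pericytes in several tissues, was the only member called at 6 h. Sham libraries held 36.7, 35.8 and 34.0 CPM. Libraries at 6 h held 20.4, 16.98 and 20.8 CPM, those at 24 h 18.8, 23.4 and 13.3, and those at 72 h 13.1, 12.0 and 10.5. The 6 h, 24 h and 72 h libraries all lay below sham. Relative to sham, the log2 change was -0.87 (SE 0.16) at 6 h (edgeR adjusted p = 0.000595), -0.93 (SE 0.16) at 24 h (edgeR adjusted p = 0.000173) and -1.58 (SE 0.16) at 72 h (edgeR adjusted p = 9.12e-08). Vtn is also a liver gene, and 6 liver and adipose markers together summed to at most 1.39 CPM in any library, with Alb at 0 in every library of the 10 min, 24 h and 72 h groups. The part of liver or other sources in the Vtn values was not tested. The gene (ENSMUSG00000017344) lies on chromosome 11 at 78499091 to 78502324 on the plus strand.

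Relative to sham, the partners of vitronectin moved the other way. Of 6 such genes 3 rose at 6 h, 5 at 24 h and 6 at 72 h, against 16.3%, 23.7% and 34.2% of all genes. Their median log2 fold change at 72 h was 2.80. Their sum was 188 ± 5.06 CPM in sham, 1037 ± 474 at 6 h, 754 ± 358 at 24 h and 625 ± 95.0 at 72 h. Between 24 and 72 h 3 of the 6 were called higher and 2 lower. The integrin subunit gene Itgb3 reached 2.95 at 72 h, the largest of the list, and Itgb5 1.12, the smallest. Macrophage markers rose over the same times (8 of 8 at 72 h), and their part in these values was not tested.

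Cspg4, which encodes the NG2 proteoglycan of pericytes and of some smooth muscle and glial cells, fell at 72 h only relative to the median gene. Libraries held 37.2, 34.0 and 38.8 CPM in sham, 35.3, 43.0 and 44.4 at 24 h and 23.1, 33.7 and 19.6 at 72 h. All 72 h libraries were below sham, with replicate 2 just under the lowest sham library. This was a log2 change of -0.53 (SE 0.16, edgeR adjusted p = 0.00913). It was 0.06 (edgeR adjusted p = 0.776) under library size scaling and -0.37 (edgeR adjusted p = 0.0607) without replicate 3 of the 72 h group. Among 5 glial markers tested 2 rose and 1 fell at 72 h, and their part was not tested. Cspg4 (ENSMUSG00000032911) lies on chromosome 9 at 56865033 to 56899870 on the plus strand.

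Pdgfrb, the PDGF receptor of mural cells that cardiac fibroblasts also express, was the only member that no comparison called. Sham libraries held 93.8, 97.3 and 98.1 CPM, those at 24 h 90.1, 98.1 and 95.4 and those at 72 h 93.5, 134 and 105. The 72 h range enclosed the sham range. At 72 h the log2 change was 0.20 (SE 0.11, edgeR adjusted p = 0.122). This call depended on settings: it became 0.79 (edgeR adjusted p = 1.44e-05) under library size scaling, 0.26 (edgeR adjusted p = 0.0430) when each library had to hold 10 counts and 0.31 (edgeR adjusted p = 0.0220) without replicate 1 of the 72 h group. Without replicate 2 of that group it was 0.04 (leaving out any 1 library gave 0.04 to 0.31). Fibroblast markers rose at 72 h in 7 of 8 genes, although their sum, 2031 to 2405 CPM, was near that in sham, and myofibroblast markers in 8 of 8, and their part in the Pdgfrb level was not tested. The gene (ENSMUSG00000024620) lies on chromosome 18 at 61045150 to 61085061 on the plus strand.

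Of 5 other PDGF genes 4 rose at 6 h, 3 rose at 24 h, and 2 rose and 1 fell at 72 h. Over all genes, 16.3%, 23.7% and 34.2% were called higher at these times, and 32.2% lower at 72 h. Pdgfc, a ligand of the alpha receptor, rose most at 72 h, by a log2 fold change of 2.76 (edgeR adjusted p = 7.99e-08), from 1.38 ± 0.375 to 9.31 ± 0.840 CPM. Pdgfd, a ligand of the beta receptor, fell by 0.83 on the log2 scale (edgeR adjusted p = 1.78e-05), the smallest value of the list. Pdgfb, the endothelial ligand that recruits pericytes, was higher at 6 h, by 0.49 on the log2 scale (edgeR adjusted p = 0.0330), and at 72 h had a value of -0.34 that did not pass (edgeR adjusted p = 0.0710) and that was positive under library size scaling.

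Notch3, the Notch receptor of mural cells, was called lower at 72 h only, and not under every setting. Libraries held 86.4, 98.9 and 98.6 CPM in sham, 79.6, 70.5 and 83.9 at 6 h, 80.8, 91.3 and 73.2 at 24 h and 60.5, 97.1 and 65.7 at 72 h. All 6 h libraries lay below all sham libraries, where the log2 change of -0.28 did not pass (edgeR adjusted p = 0.141). Replicate 2 at 72 h lay inside the sham range and the other two below it. At 72 h this gave a log2 change of -0.35 (SE 0.14, edgeR adjusted p = 0.0341), a call that did not hold widely. It was lost without sham replicate 2 or 3 or without 72 h replicate 1 or 3 (edgeR adjusted p = 0.0894, 0.0892, 0.188 and 0.147), and library size scaling gave 0.24 (edgeR adjusted p = 0.154). Without replicate 2 of the 72 h group it was -0.59. An antisense gene, Gm17276, shares 6.03% of its exon bases. Notch3 (ENSMUSG00000038146) lies on chromosome 17 at 32120820 to 32166852 on the minus strand.

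Among 10 Notch ligands and targets 1 fell at 6 h, and 1 rose and 1 fell at 24 h. At 72 h 2 rose and 5 fell (34.2% and 32.2% of all genes), with a median log2 fold change of -0.38. Under library size scaling 3 rose and 1 fell at 72 h and the median was 0.21. Heyl, a transcriptional repressor and target of NOTCH3 in mural cells, went down and then up. Its libraries held 40.9, 39.3 and 39.8 CPM in sham, 24.3, 25.1 and 28.8 at 6 h, 23.9, 28.5 and 16.0 at 24 h and 53.8, 54.5 and 49.6 at 72 h. The groups did not overlap sham at any of these times, with log2 fold changes of -0.62, -0.80 and 0.40 (edgeR adjusted p = 0.00313, 0.000219 and 0.016). Jag2, a ligand, had the lowest value at 72 h, -1.54, and Rbpj the highest, 1.11. The endothelial ligand Dll4 had -0.98 at 72 h, when 6 of 8 endothelial markers fell (2 rose and 2 fell under library size scaling). Their part in the Notch values was not tested.

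**Figure D3:**
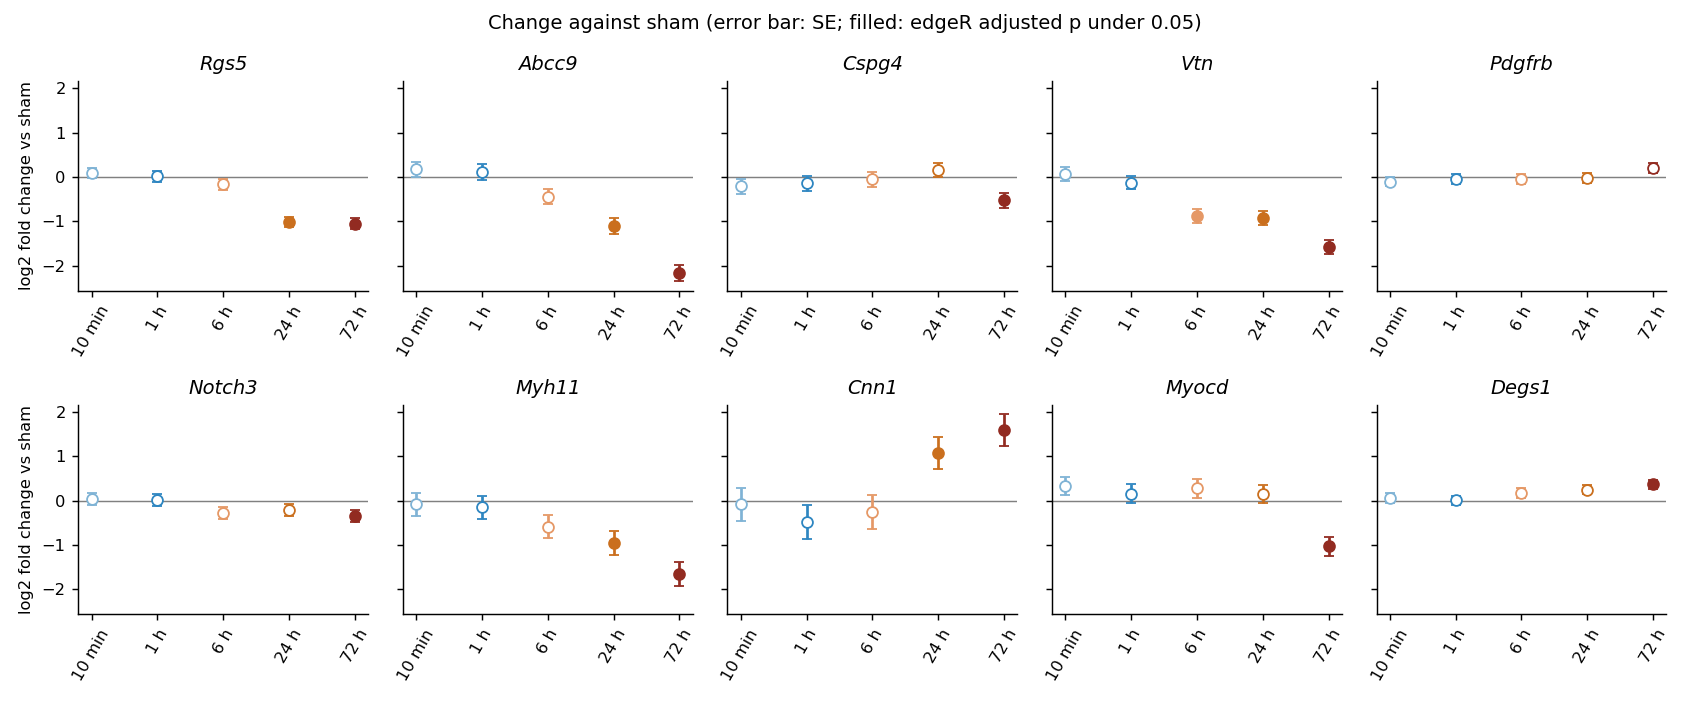
Log2 fold change against sham (vertical axis, error bars SE) of the 10 genes at 5 times after ligation (horizontal axis), filled where the edgeR adjusted p was under 0.05. Changes called at 6 h are limited to Vtn, and by 72 h the values run from -2.17 for Abcc9 to 1.59 for Cnn1.

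Myh11, smooth muscle myosin heavy chain and the most specific contractile marker of the set, was lower at each later time point. Libraries held 95.5, 100.2 and 109 CPM in sham, 74.1, 73.3 and 56.2 at 6 h, 53.2, 54.2 and 50.3 at 24 h and 21.6, 52.8 and 22.3 at 72 h. From 6 h on every library was below sham, and replicate 2 at 72 h lay within the 24 h range. The log2 fold change was -0.58 at 6 h (SE 0.27, edgeR adjusted p = 0.116), -0.95 (SE 0.27) at 24 h (edgeR adjusted p = 0.00999) and -1.65 (SE 0.27) at 72 h (edgeR adjusted p = 7.21e-05), which is 3.15-fold lower. Without replicate 2 of the 72 h group the 72 h value was -2.21, and the 6 h value passed (edgeR adjusted p = 0.00505). Myh11 (ENSMUSG00000018830) lies on chromosome 16 at 14194535 to 14291372 on the minus strand.

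Cnn1, calponin, an actin-binding protein of differentiated smooth muscle, rose. Sham libraries held 4.09, 3.53 and 4.398 CPM, those at 24 h 6.95, 13.8 and 4.49 and those at 72 h 9.68, 16.4 and 10.2. All 24 h and 72 h libraries were above sham, although replicate 3 at 24 h exceeded the highest sham library by little. Calponin's log2 change was 1.08 (SE 0.36) at 24 h (edgeR adjusted p = 0.0232) and 1.59 (SE 0.36) at 72 h (edgeR adjusted p = 0.000956), which is 3.01-fold higher. Without replicate 2 of the 24 h group the 24 h value was 0.52 (edgeR adjusted p = 0.206), and without sham replicate 1 or 2 the call was also lost (edgeR adjusted p = 0.0593 and 0.0789). The gene (ENSMUSG00000001349) lies on chromosome 9 at 22099216 to 22109630 on the plus strand. Myofibroblast markers summed to 148 to 213 CPM in sham, 355 to 482 at 24 h and 2847 to 3424 at 72 h, and their part in the Cnn1 value was not tested.

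Myocd, the coactivator myocardin that drives smooth muscle and cardiac genes with SRF, was lower at 72 h alone. Libraries held 24.9, 26.9 and 28.5 CPM in sham, 44.5, 27.2 and 25.8 at 6 h, 39.6, 26.7 and 22.6 at 24 h and 15.0, 13.03 and 11.2 at 72 h. The 72 h libraries were the lowest 3 of all 18, and replicate 1 stood above the others at 6 h and 24 h. At 72 h myocardin's log2 change was -1.03 (SE 0.21, edgeR adjusted p = 0.000378), or 2.04-fold lower. Library size scaling gave -0.45 (edgeR adjusted p = 0.0375). With limma on log2(FPKM + 1), which differs in both the scaling and the added pseudocount, it was -0.34 (limma adjusted p = 0.0568). Cardiomyocytes also express Myocd. All 8 cardiomyocyte markers fell at 72 h (median log2 fold change -2.07), and their part in the Myocd value was not tested. Myocd (ENSMUSG00000020542) lies on chromosome 11 at 65176561 to 65269989 on the minus strand.

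Other regulators of the SRF pathway split. Of 8 tested 2 rose and 5 fell at 72 h, against 34.2% and 32.2% of all genes (median log2 fold change -0.29). Under library size scaling 4 of the 8 rose and 1 fell. Mrtfa, a myocardin-related coactivator that responds to actin, rose from 9.56 ± 0.513 to 24.3 ± 1.79 CPM, by 1.35 on the log2 scale (edgeR adjusted p = 2.49e-07), opposite in direction to Myocd. Srf itself had -0.35 (edgeR adjusted p = 0.0104), which turned positive under library size scaling. Klf4, a repressor of the contractile programme, rose at 1 h with a log2 fold change of 1.43 (edgeR adjusted p = 0.000113), the only gene of this list called at that time, and was lower at 72 h, at -0.89. The highest value at 72 h was 2.17 for Klf5, at under 1 CPM in all group means, and the lowest -1.001 for Foxo4.

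Degs1, matched from Des1, rose at 72 h. Libraries held 45.9, 40.9 and 46.8 CPM in sham, 49.5, 52.8 and 56.3 at 24 h and 53.9, 64.7 and 54.1 at 72 h. All 24 h and 72 h libraries were above sham. Its log2 change was 0.25 (SE 0.10) at 24 h (edgeR adjusted p = 0.0622), which passed without replicate 3 of the 6 h group or replicate 1 of the 24 h group (edgeR adjusted p = 0.0352 and 0.0389), and 0.37 (SE 0.10) at 72 h (edgeR adjusted p = 0.0042). With library size scaling both passed, with 0.44 at 24 h (edgeR adjusted p = 0.00373) and 0.95 at 72 h (edgeR adjusted p = 2.89e-07). Degs1 (ENSMUSG00000038633) lies on chromosome 1 at 182275772 to 182282804 on the minus strand.

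Consecutive times were compared to place each change. Between 10 min and 1 h edgeR called 0 members (0.307% of all genes, 0.251% higher and 0.0552% lower), with 0 at an unadjusted p under 0.05 and 0 by DESeq2. Between 1 and 6 h it called 2, both lower (24.5% of all genes, 14.5% higher and 10.0% lower), Vtn with a log2 fold change of -0.75 and Abcc9 with -0.55. Between 6 and 24 h it called 3 (27.8% of all genes, 14.2% higher and 13.7% lower), Rgs5 with -0.85, Abcc9 with -0.66 and Cnn1 with 1.34. Between 24 and 72 h it called 5, all lower (50.5% of all genes, 24.4% higher and 26.1% lower): Myocd with -1.18, Abcc9 with -1.07, Myh11 with -0.70, Cspg4 with -0.68 and Vtn with -0.65. Rgs5 had -0.04 (SE 0.12) in that last interval. Abcc9 was the only member called in all 3 intervals from 1 h on, and Rgs5 and Cnn1 were called between 6 and 24 h alone. By the F test over all groups, 9 of 10 members differed somewhere, against 78.4% of all genes.

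Ratios of counts within a library do not depend on scaling, and were taken against Pdgfrb, chosen after its values were seen, as the member with the change nearest 0 at 72 h under TMM. That choice depends on the scaling, since Cspg4 was nearest 0 under library size scaling. Abcc9 counts went from 3.63 ± 0.24 times those of Pdgfrb (sham) to 1.74 ± 0.699 (24 h) and 0.721 ± 0.173 times (72 h). For Rgs5 the ratio went from 6.54 ± 0.0735 (sham) to 3.32 ± 0.704 (24 h) and 2.82 ± 0.54 (72 h). For Vtn it went from 0.368 ± 0.0222 (sham) to 0.207 ± 0.0136 (6 h) and 0.11 ± 0.0265 (72 h). At 10 min, where edgeR called 0 members, the ratios of Abcc9 (4.41 ± 0.206), Rgs5 (7.51 ± 0.593) and Myocd (0.378 ± 0.0709) lay above all sham libraries. Pdgfrb itself had a log2 fold change of -0.10 at that time. The Myocd ratio also lay above sham at 1 h (0.319 ± 0.017). All other ratios to Pdgfrb at 10 min and 1 h overlapped sham. The share over all genes is not given for these early ratios, so they are not read as a trait of the members. Cspg4 and Notch3, whose direction at 72 h turned with the scaling, had lower ratios in all 72 h libraries than in all sham libraries. The Cspg4 ratio was 0.38 ± 0.0268 in sham and 0.229 ± 0.0357 at 72 h, and that of Notch3 0.981 ± 0.0518 and 0.667 ± 0.0517. Myh11 went from 1.05 ± 0.0519 to 0.28 ± 0.0999 and Myocd from 0.277 ± 0.0126 to 0.122 ± 0.0342, while Cnn1 went from 0.0416 ± 0.00466 to 0.108 ± 0.0131. The ratio of Degs1 overlapped sham at 72 h. Each non-overlapping ratio had the exact permutation test's smallest two-sided p of 0.1, and a ratio shows unequal change of its 2 genes, not which of them changed.

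**Figure D4:**
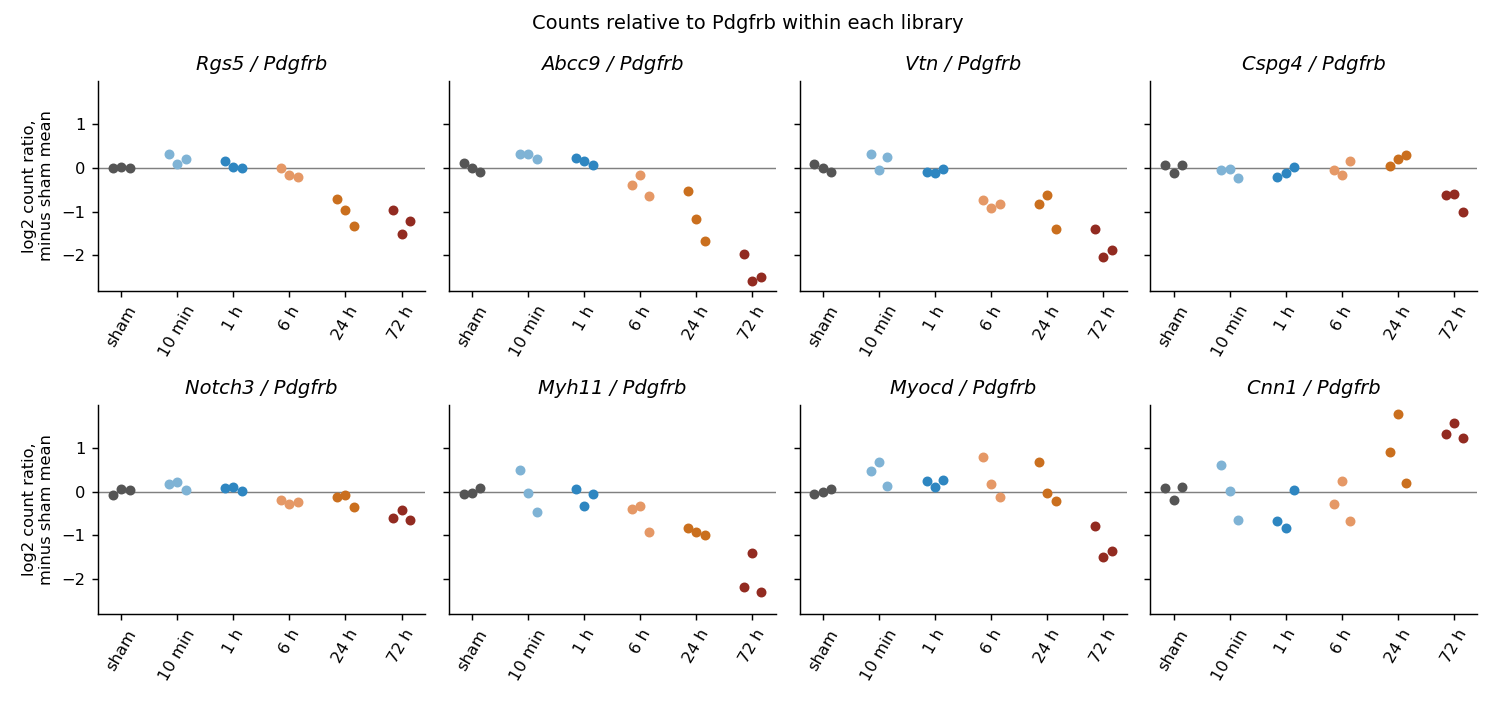
Log2 ratio of each gene's counts to Pdgfrb counts in the same library, minus the sham mean (vertical axis), by group (horizontal axis), 1 point per mouse. At 72 h the points of Rgs5, Abcc9, Vtn, Cspg4, Notch3, Myh11 and Myocd lie below all sham points and those of Cnn1 above.

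The other contractile genes went in both directions at 72 h: some fell with Myh11 and others rose. Of 16 other smooth muscle genes 2 rose and 2 fell at 6 h, and 5 rose and 5 fell at 24 h. At 72 h 9 rose and 7 fell (34.2% and 32.2% of all genes), with a median log2 fold change of 1.02 against 0.03 over all genes. Under library size scaling 9 rose and 3 fell. The highest value at 72 h was 1.99 for Actg2, gamma smooth muscle actin, and the lowest -2.18 for Pln, phospholamban, a calcium pump regulator that cardiomyocytes express abundantly and 64.7% of whose exon bases lie in antisense genes. Acta2, smooth muscle actin, held 124, 95.6 and 142 CPM in sham, 102, 124 and 112 at 24 h and 270.5, 361 and 321 at 72 h. Its 72 h libraries were all above sham (log2 fold change 1.40, edgeR adjusted p = 5.67e-05). The ratio of Acta2 to Myh11 counts went from 1.185 ± 0.2 in sham to 2.14 ± 0.199 at 24 h and 11.2 ± 3.92 at 72 h, and that of Cnn1 to Myh11 from 0.0394 ± 0.00392 to 0.158 ± 0.0865 and 0.404 ± 0.0819, with no overlap with sham at either time.

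Besides Acta2, Actg2 and Tagln, the genes of this list that rose at 72 h were Cnn2, Cnn3, Csrp1, Tpm2, Cald1 and Myl9, with log2 fold changes of 1.77, 1.25, 1.51, 1.46, 1.27 and 0.80. Myl9, a myosin light chain, had been lower at 24 h (-0.55). At 72 h all 8 myofibroblast markers, Acta2 among them, also rose, as did 7 of 8 fibroblast and 8 of 8 macrophage markers. The part of those cells in the rises of this list was not tested. Lower at 72 h, as Myh11 was, were Smtn (smoothelin, -0.85), Lmod1 (leiomodin, -0.89), Mylk (myosin light chain kinase, -0.59) and Synpo2 (synaptopodin-2, -1.01). The tropomyosin gene Tpm1, unlike Tpm2, had -1.33. All 8 cardiomyocyte markers also fell at 72 h (median log2 fold change -2.07). The part of cardiomyocytes in the falls of this list was not tested. Under library size scaling the calls of Smtn (-0.27), Lmod1 (-0.30) and Mylk (-0.00093) were lost (edgeR adjusted p = 0.0509, 0.259 and 0.996), and Synpo2, Tpm1 and Pln stayed lower. Des was higher at 6 h (log2 fold change 0.67) and 24 h (0.83) and lower at 72 h (-0.41, edgeR adjusted p = 0.0292), and the 72 h direction turned under library size scaling. Tagln, transgelin, rose by a log2 fold change of 1.59, from 0.721 ± 0.193 to 2.20 ± 0.00838 CPM, and 67.9% of its exon bases lie in antisense genes, so its counts are uncertain. Antisense genes also share 16.3% of the exon bases of Smtn and 17.7% of those of Cnn3.

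Among 14 other pericyte genes 4 rose and 4 fell at 6 h, and 2 rose and 6 fell at 24 h. At 72 h 4 rose and 8 fell, against 34.2% and 32.2% of all genes (median log2 fold change -0.47). Under library size scaling 6 rose and 4 fell at 72 h, and the median was 0.11. The lowest value at 72 h was -1.91 for Art3, an ADP-ribosyltransferase, and the highest 2.59 for Anpep, aminopeptidase N, which macrophages and fibroblasts also express. Cox4i2 and Higd1b, mitochondrial genes of pericytes, had -1.13 and -0.89. Foxs1 and Tbx18, transcription factors of mural cells, had 2.11 and 1.27, and an antisense gene shares 20.6% of the exon bases of Tbx18. Steap4 rose at 6 h, from 44.3 ± 2.46 to 100.5 ± 9.07 CPM (edgeR adjusted p = 1.37e-07), and was lower at 72 h (-0.54), a value that turned positive under library size scaling.

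**Figure D5:**
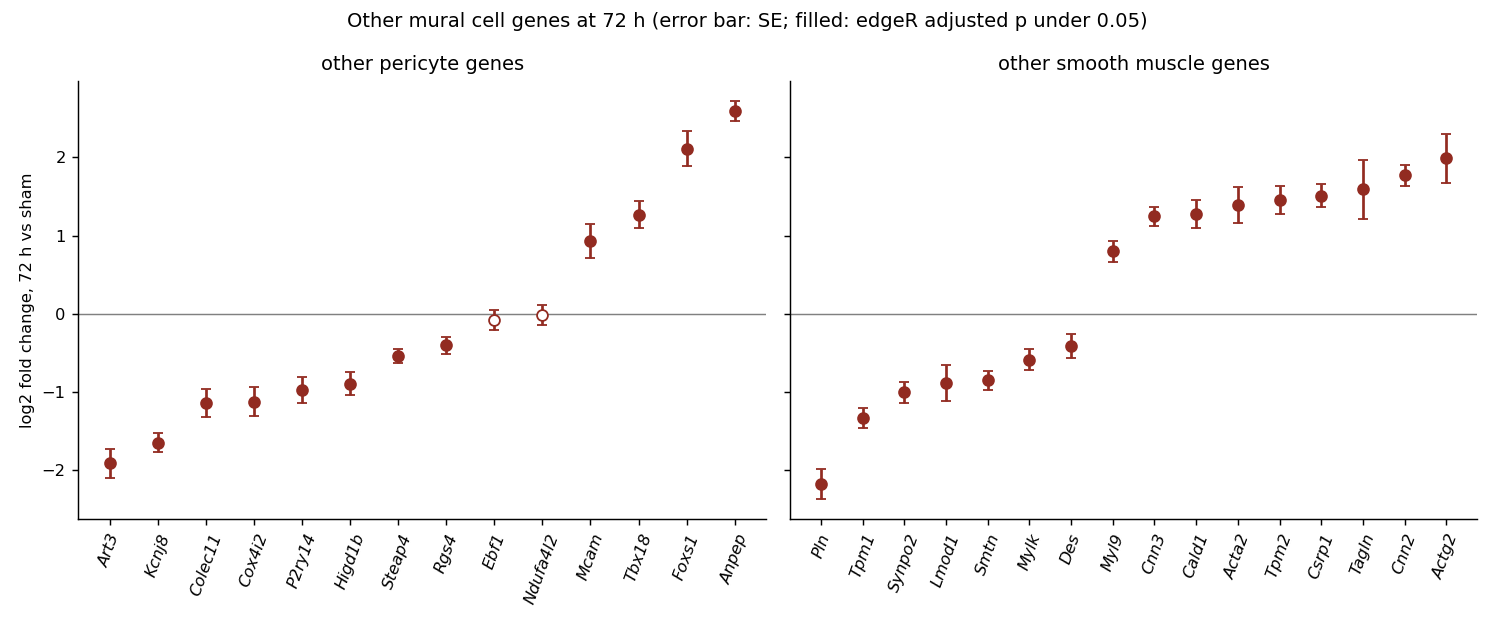
Log2 fold change at 72 h against sham (vertical axis, error bars SE) of the other pericyte genes (left) and other smooth muscle genes (right), ordered by value, filled where the edgeR adjusted p was under 0.05. Both lists spread to both sides of 0, from -1.91 for Art3 to 2.59 for Anpep and from -2.18 for Pln to 1.99 for Actg2.

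Receptors and effectors through which vessels change tone were mixed. Of 10 tested 2 rose and 4 fell at 6 h, 4 fell at 24 h and 4 fell at 72 h. Over all genes, 12.2%, 20.2% and 32.2% were called lower at these times, and 16.3% higher at 6 h. The median log2 fold change of the 10 genes at 72 h was -0.04. For them library size scaling gave 5 higher and 3 lower at 72 h. The angiotensin receptor gene Agtr1a had the lowest value at 72 h, -1.82 (edgeR adjusted p = 5.49e-09), and the adrenergic receptor genes Adra1a and Adra1b had -1.45 and -1.23. Cardiomyocyte markers fell at 72 h as well (8 of 8), and their part in these receptor values was not tested. The subunits of the nitric oxide receptor, Gucy1a1 and Gucy1b1, were lower at 6 h (log2 fold change -0.55 and -0.53) and 24 h (-0.78 and -0.54) and had 0.09 and 0.10 at 72 h, where they did not pass. Pde5a, which degrades cyclic GMP, had -0.67, -0.76 and 0.26 at these times, the last not passing (edgeR adjusted p = 0.0622) and the highest of the list.

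At 72 h the highest library differed between gene groups. Replicate 2 was the highest of the 3 libraries for 6 of 10 members (Cspg4, Pdgfrb, Notch3, Myh11, Cnn1 and Degs1), 9 of 16 other smooth muscle genes, 7 of 8 myofibroblast markers, 5 of 8 endothelial markers, 3 of 14 other pericyte genes, 2 of 8 fibroblast markers, 1 of 8 macrophage markers and 0 of 8 cardiomyocyte markers, and for 37.0% of all genes tested. Replicate 1 was the highest for 9 of 14 other pericyte genes and 8 of 8 cardiomyocyte markers, and for 34.2% of all genes tested. Without replicate 1 the number of members called at 72 h was again 9, but the set differed. Pdgfrb passed (edgeR adjusted p = 0.0220) and Notch3 no longer did (edgeR adjusted p = 0.188). Replicate 3 of the 24 h group was the lowest of its group for 7 of 10 members. The share over all genes is not given for that count, so it is not read as a trait of the members.

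Profiles over the 18 libraries were compared by Pearson correlation on the log2 CPM scale, as a description of libraries that share their groups and depth. Rgs5 and Abcc9 correlated at 0.93, Abcc9 and Vtn at 0.92, Rgs5 and Vtn at 0.88 and Abcc9 and Myh11 at 0.88, whereas Rgs5 and Pdgfrb gave -0.39. The search for similar profiles covered the genes tested, with predicted genes and genes of low mean count left out. Among these, the profiles most like Abcc9 were those of Cyfip2, Txlnb and Grsf1 (0.993, 0.992 and 0.991), and most like Rgs5 those of Foxn3, Ttll1 and Hcn2 (0.975, 0.973 and 0.973). Vtn was closest to Afdn, Cavin2 and Tspan13 (0.988, 0.986 and 0.968). Myh11 was closest to Gmps, Mylk and Fgd5 (0.943, 0.934 and 0.923), so that myosin light chain kinase appeared beside smooth muscle myosin. Myocd was closest to Ctnna1, Slain2 and Synpo2 (0.940, 0.939 and 0.937). Cnn1 was closest to Parva, Cnih1 and Tuba1a (0.935, 0.927 and 0.907). Pdgfrb had its nearest profile in Jag1 (0.767), a Notch ligand, followed by Pkd2 and Ncstn. Notch3 was closest to Stum, Kif26a and Utrn (0.866, 0.842 and 0.811), Cspg4 to Hip1r, Ufd1 and mt-Tp (0.845, 0.844 and 0.836), and Degs1 to Hsd17b12, Naa50 and Agpat4 (0.902, 0.902 and 0.899).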

How the data were processed

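The count table and the FPKM table hold 30583 Ensembl genes in 18 libraries. Per the submitters' processing notes reads were trimmed with cutadapt 1.18, aligned with HISAT2 2.1.0 to mm10 and counted with featureCounts; use of strand is not given in the sources used here. The deposited values are raw counts per gene and FPKM, scaled by the authors to gene length and library total. At 6 h, FPKM of replicate 2 matches the counts of replicate 3 and the reverse; both are in 1 group.

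Counts were fitted with edgeR 4.0.16 (R 4.3.3): filterByExpr kept 16311 genes and removed 14272, TMM scaling, robust quasi-likelihood fit with 1 mean per group over all libraries, biological coefficient of variation 0.149. A gene was called at a Benjamini-Hochberg adjusted p under 0.05 over all genes tested. Fits were tested on simulated data. Alternatives were DESeq2 1.42.0, limma 3.58.1 on log2(FPKM + 1), other scalings and filters, a replicate block, the 6 libraries compared alone, and leaving out each library. Coordinates and exon overlaps are from GENCODE M21 (GRCm38), promoter windows from RefSeq. Members and lists were chosen with earlier results of these data known. All members are named; of each list at least the genes with the highest and lowest value at 72 h, and 3 genes by profile per member. Replicates of every group differed beyond sampling noise. Precision is limited by 3 mice per group.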

Additional observations from a re-analysis of the deposited data

Results flagged for a closer look

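The effect against sham differed between consecutive time points for 10 combinations of member and interval, by the edgeR contrast of the 2 time points, which is the difference of their effects. Between 1 and 6 h it was -0.55 for Abcc9 (SE 0.17, edgeR adjusted p = 0.0272) and -0.75 for Vtn (SE 0.16, edgeR adjusted p = 0.00253), with 3 of 3 libraries at 6 h below all libraries at 1 h for both genes. The Abcc9 call was lost without any 1 of the 1 h libraries or without replicate 1 or 3 of the 6 h group (edgeR adjusted p = 0.0521 to 0.0918). Between 6 and 24 h it was -0.85 for Rgs5 (edgeR adjusted p = 8.9e-05), -0.66 for Abcc9 (edgeR adjusted p = 0.00945) and 1.34 for Cnn1 (edgeR adjusted p = 0.0131). The Cnn1 value was 0.77 (edgeR adjusted p = 0.0943) without replicate 2 of the 24 h group, and was also lost without replicate 3 of the 6 h group (edgeR adjusted p = 0.0586). Between 24 and 72 h it was -1.07 for Abcc9 (edgeR adjusted p = 6.66e-05), -1.18 for Myocd (edgeR adjusted p = 0.000182), -0.68 for Cspg4 (edgeR adjusted p = 0.00205), -0.65 for Vtn (edgeR adjusted p = 0.00243) and -0.70 for Myh11 (edgeR adjusted p = 0.0405). The last call was lost without replicate 1, 2 or 3 of the 24 h group (edgeR adjusted p = 0.0959, 0.0824 and 0.0688) and without replicate 1 or 3 of the 72 h group (edgeR adjusted p = 0.162 and 0.166). Under library size scaling the calls of Cspg4 (-0.30), Vtn (-0.26) and Myh11 (-0.31) between 24 and 72 h and of Abcc9 (-0.37) between 6 and 24 h did not pass.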

How the results depend on the processing

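The number of members called at 6 h against sham was 1, and became 2 with library size scaling, 2 with the replicate block, and 3 with only the 6 libraries compared or with limma on log2(FPKM + 1); leaving out 1 library gave 1 to 3. Between 1 and 6 h it was 2, and 1 with no filter, and leaving out 1 library gave 1 to 4. Between 6 and 24 h it was 3 (1 higher, 2 lower), and 6 with library size scaling (5 higher, 1 lower) and 1 with only the 6 libraries compared. At 24 h leaving out 1 library gave 4 to 6 and at 72 h 7 to 9. With the replicate block Abcc9 at 6 h passed (-0.44, edgeR adjusted p = 0.0466) and no other call changed; same-numbered libraries did not vary together (median correlation 0.04 over 45 pairs, 4 of them over 0.1), and 11 of 18 libraries correlated more with their own number. Directions turned under library size scaling and limma for Rgs5 between 24 and 72 h (from -0.04 to 0.36 and 0.37; 0.018 with a minimum of 10 counts; -0.19 to 0.084 leaving out 1 library), Cspg4 at 72 h (0.057 and 0.024), Notch3 at 72 h (0.24 and 0.20) and Notch3 between 24 and 72 h (from -0.14 to 0.25 and 0.21). Between 6 and 24 h, leaving out 1 library gave -0.031 to 0.072 for Pdgfrb, -0.018 to 0.14 for Notch3 and -0.033 to 0.15 for Degs1. Cnn1 at 24 h was also not called with no filter or only the 6 libraries compared (edgeR adjusted p = 0.0807 and 0.0595). The causes were not tested. Of the counts of members called, 242 values were within 1.5 times the reported one and 17 were not; of single genes, 1001 kept direction and side of the threshold, 38 newly passed, 39 no longer passed and 14 turned. Depth was at least 18.2 M counts, and counts of the lowest member, Cnn1, ran from 38 to 538.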
